A study of Rattus norvegicus with 56 samples.

Results

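The miR-181 family was followed through small RNA sequencing of fetal rat myocardium, amniotic fluid and maternal serum. Its 5 members, miR-181a-5p, miR-181b-5p, miR-181c-5p, miR-181c-3p and miR-181d-5p, were taken by name from the count tables, in which 682 microRNAs were listed in all. All 5 were listed in each tissue, among 661 microRNAs in the myocardium, 523 in the amniotic fluid and 518 in the maternal serum. The samples were 56, in 8 groups of 7, from Sprague-Dawley rats, all labelled D19 (embryonic day 19). In the DMO group, dams had received dimethadione (DMO), a teratogen that causes ventricular septal defect (VSD), by repeated oral gavage in early pregnancy, while dams of the NC group had received distilled water. The VSD group held DMO-exposed fetuses with VSD and without malformation of the major vessels, and the non-VSD group held DMO-exposed fetuses with an intact septum. For the myocardium and amniotic fluid, all 3 groups were sequenced. For the maternal serum, only NC and VSD were. DMO exposure is shared by VSD and non-VSD fetuses, so a difference of either from NC holds the drug as well as the phenotype. The sources used here do not name the dam of each fetus, and p-values measure the spread between these samples.

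MicroRNAs of about 22 bases are cut from a hairpin, whose arms give a 5p and a 3p product. One arm is usually kept by the Argonaute protein while the other is degraded, and the seed, bases 2 to 8 of the kept arm, pairs with target transcripts. Members of the miR-181 family lie in paired hairpins, each pair transcribed from the same stretch of DNA. MiR-181a is known for tuning the sensitivity of the T cell receptor, miR-181b for damping inflammatory signalling in endothelium, and miR-181c for acting on mitochondrial transcripts in cardiomyocytes. MiR-181c had also been linked to VSD in earlier work, which is why its values in these tissues are of interest.

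The mature sequences show why the members are described together and where their reads could be confused. They were taken from RefSeq (build GRCr8), where 5 of 5 members had an entry, and capitals mark the seed.
miR-181a-5p: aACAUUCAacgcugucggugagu
miR-181b-5p: aACAUUCAuugcugucggugggu
miR-181c-5p: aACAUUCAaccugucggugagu
miR-181d-5p: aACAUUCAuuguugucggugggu
miR-181c-3p: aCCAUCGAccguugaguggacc
miR-181a-1-3p: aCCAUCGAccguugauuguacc
The seed ACAUUCA was shared by the 5p arms and by no other of the 693 mature microRNAs in the reference. MiR-181b-5p and miR-181d-5p differed by 1 substitution, C12U, counted from 1 at the 5′ end of miR-181b-5p. MiR-181a-5p and miR-181c-5p differed by a single-base gap and no substitution. MiR-181c-3p has another seed, CCAUCGA, which it shares with miR-181a-1-3p, the 3p arm of a miR-181a hairpin. How the authors assigned reads that fit more than 1 member is not given in the sources used here. Values of miR-181b-5p and miR-181d-5p, of miR-181c-3p and miR-181a-1-3p, and of miR-181a-5p and miR-181c-5p are uncertain to that extent. In the NC myocardium miR-181a-5p had 110057 summed counts and miR-181c-5p had 3915, so misassigned reads would weigh most on miR-181c-5p. This limit holds for every value of miR-181c-5p below, its arm ratio included.

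All mature members lie within microRNA hairpin genes on the plus strand. MiR-181a-5p comes from Mir181a-1 at chr13:52037081-52037103 and from Mir181a2 at chr3:43025601-43025623, with the identical sequence at both. MiR-181b-5p is annotated at chr13:52037263-52037285. The hairpins Mir181a-1 and Mir181b1 are 61 bases apart. A further miR-181b hairpin, Mir181b2, lies on chromosome 3, with 986 bases between it and Mir181a2. It had no mature entry in the reference, so no position of miR-181b-5p is given there. MiR-181c-5p lies at chr19:40888314-40888335, miR-181c-3p at chr19:40888353-40888374 and miR-181d-5p at chr19:40888484-40888506, and 77 bases separate the Mir181c and Mir181d hairpins.

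Total counts per library ranged from 1694811 to 9371130 in the myocardium, from 78188 to 331787 in the amniotic fluid and from 147609 to 581350 in the maternal serum. A count of 0 therefore allows a level of up to 1.77, 38.4 and 20.3 CPM, the counts scaled to a library total of 1000000, in the smallest library of each, which covers counting error only. RNA of the myocardium came from wax blocks. Total RNA was extracted with a different kit from each tissue, and the amniotic fluid libraries were also made with another library kit and sequencer. In any comparison of tissues, including myocardium against serum, preparation and tissue cannot be told apart. The tissue labels were checked with markers. In the NC group the summed level of 5 heart muscle microRNAs was between 4027 and 98677 CPM in the myocardium and between 94.6 and 1579 CPM in the amniotic fluid. In NC serum it was between 3191 and 15938 CPM, which overlapped the myocardium. The 4 red blood cell microRNAs summed to between 66896 and 192847 CPM in NC serum and to between 2651 and 91132 CPM in NC myocardium, again with overlap. These 2 lists therefore did not separate serum from the myocardium, nor did the epithelial list, which also overlapped. The white blood cell list did separate them, at 36253 to 71848 CPM in NC serum and 426 to 3758 CPM in NC myocardium. So did the liver marker, at 5189 to 31852 CPM in NC serum and 259 to 1433 CPM in NC myocardium. The endothelial list was lower in NC serum, at 2996 to 6593 CPM, than in NC myocardium, at 11476 to 23906 CPM. No marker of any of the 6 lists was absent from a tissue. As these are bulk samples, fewer cells of a type and less RNA per cell cannot be told apart.

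In the NC group the family took 0.367% ± 0.0890 (SD, n = 7) of the counts in the myocardium, 0.701% ± 0.119 in the amniotic fluid and 0.0561% ± 0.0241 in the maternal serum. MiR-181a-5p led in all 3 tissues, at a median rank of 52 among the microRNAs of a library in the myocardium and 47 in the amniotic fluid, and at a lower rank in serum. Its share of the summed counts of the 5p arms was 65.2% ± 4.08 in the myocardium, 67.1% ± 3.42 in the amniotic fluid and 41.5% ± 7.26 in serum. The 7 NC myocardium libraries all lay above the 7 NC serum libraries in this share (exact permutation test, two-sided, p = 0.000583, the smallest this design allows, adjusted p = 0.00117 over 12 tests of a share between tissues). The remainder went the other way. MiR-181d-5p took 13.8% ± 2.44 in the myocardium and 24.5% ± 4.71 in serum, and miR-181c-5p took 2.22% ± 0.456 and 8.77% ± 3.81, again with no overlap (exact permutation test, p = 0.000583 for each, adjusted p = 0.00117). The share of miR-181b-5p was 18.7% ± 2.13 in the myocardium and 25.2% ± 8.04 in serum (exact permutation test, p = 0.0647). Since miR-181b-5p and miR-181d-5p are nearly identical, their sum was also compared, and in serum it was 17.1 percentage points above the myocardium (written as -17.1 for myocardium less serum, exact permutation test, p = 0.000583). Between myocardium and amniotic fluid, no share passed the test (exact permutation test, p from 0.107 to 0.364). The order of the 5p arms in the tissue and in the fluid of the fetus was miR-181a-5p, miR-181b-5p, miR-181d-5p and miR-181c-5p by mean share, while in serum the means of miR-181b-5p and miR-181d-5p differed by less than their SD.

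**Figure D1:**
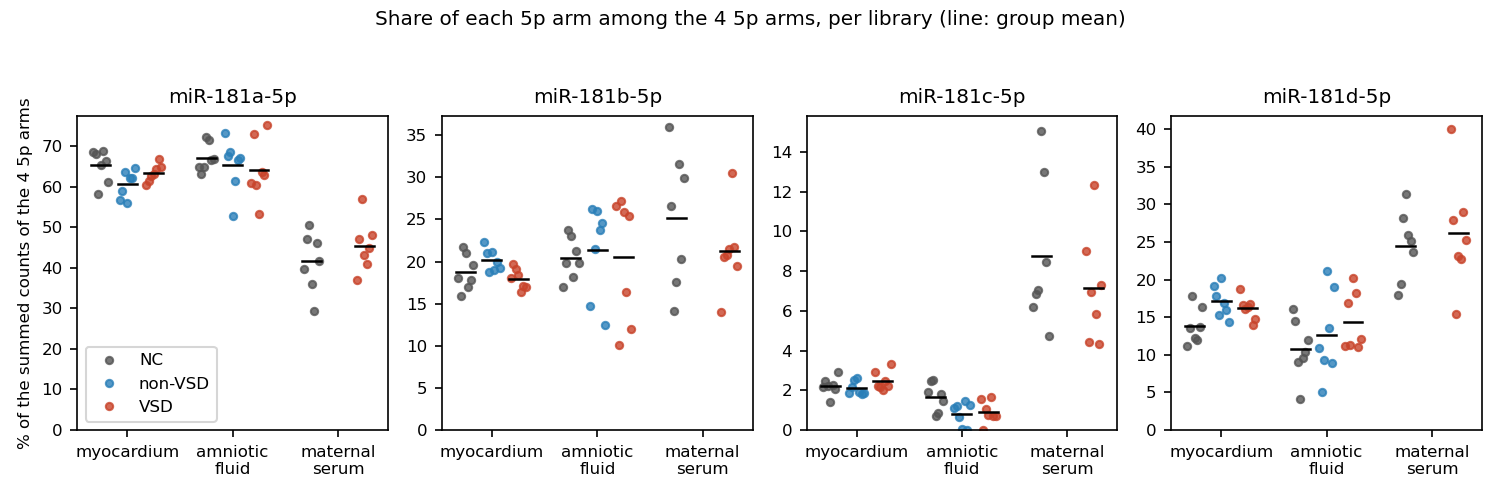
Percentage of the summed counts of miR-181a-5p, miR-181b-5p, miR-181c-5p and miR-181d-5p (vertical axis) taken by each of them in every library, by tissue (horizontal axis) and group (colour), with lines at the group means. The share of miR-181a-5p in the NC group was 65.2% in the myocardium and 41.5% in maternal serum, and that of miR-181c-5p was 2.22% and 8.77%.

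MiR-181c is the only hairpin with both arms among the members, and its 3p arm was the more abundant. In the NC group the summed counts of miR-181c-3p and miR-181c-5p were 6344 and 3915 in the myocardium, 276 and 112 in the amniotic fluid, and 287 and 123 in serum. The median ratio of 5p to 3p counts in NC libraries was 0.573 in the myocardium, 0.437 in the amniotic fluid and 0.448 in serum. In the NC myocardium the highest ratio was 0.943, so that the 3p arm had more counts in every one of these libraries.

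In the VSD myocardium, the median of every 5p arm lay above its NC median with TMM scaling, while that of miR-181c-3p did not. The levels below are CPM scaled by TMM, a normalization that takes most microRNAs as unchanged. MiR-181a-5p was at 2555, 2858, 2601, 2397, 2814, 2409 and 2884 CPM in NC replicates 1 to 7 and at 3265, 3187, 4180, 2931, 3597, 3129 and 3116 CPM in VSD replicates 1 to 7. The groups did not overlap. Of the 469 microRNAs tested in this comparison, 3, or 0.64%, lay above NC without overlap, and miR-181a-5p was the only member to do so on this scale. Without overlap the two-sided exact permutation test has to give p = 0.000583, the smallest possible, so this p adds nothing to the lack of overlap. With scaling by library size only, 4 of 7 VSD libraries lay above every NC library. The log2 fold change of miR-181a-5p was 0.33 (standard error, SE, 0.13, edgeR's unadjusted p = 0.0246, adjusted p = 0.175), which did not pass the adjusted threshold.

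**Figure D2:**
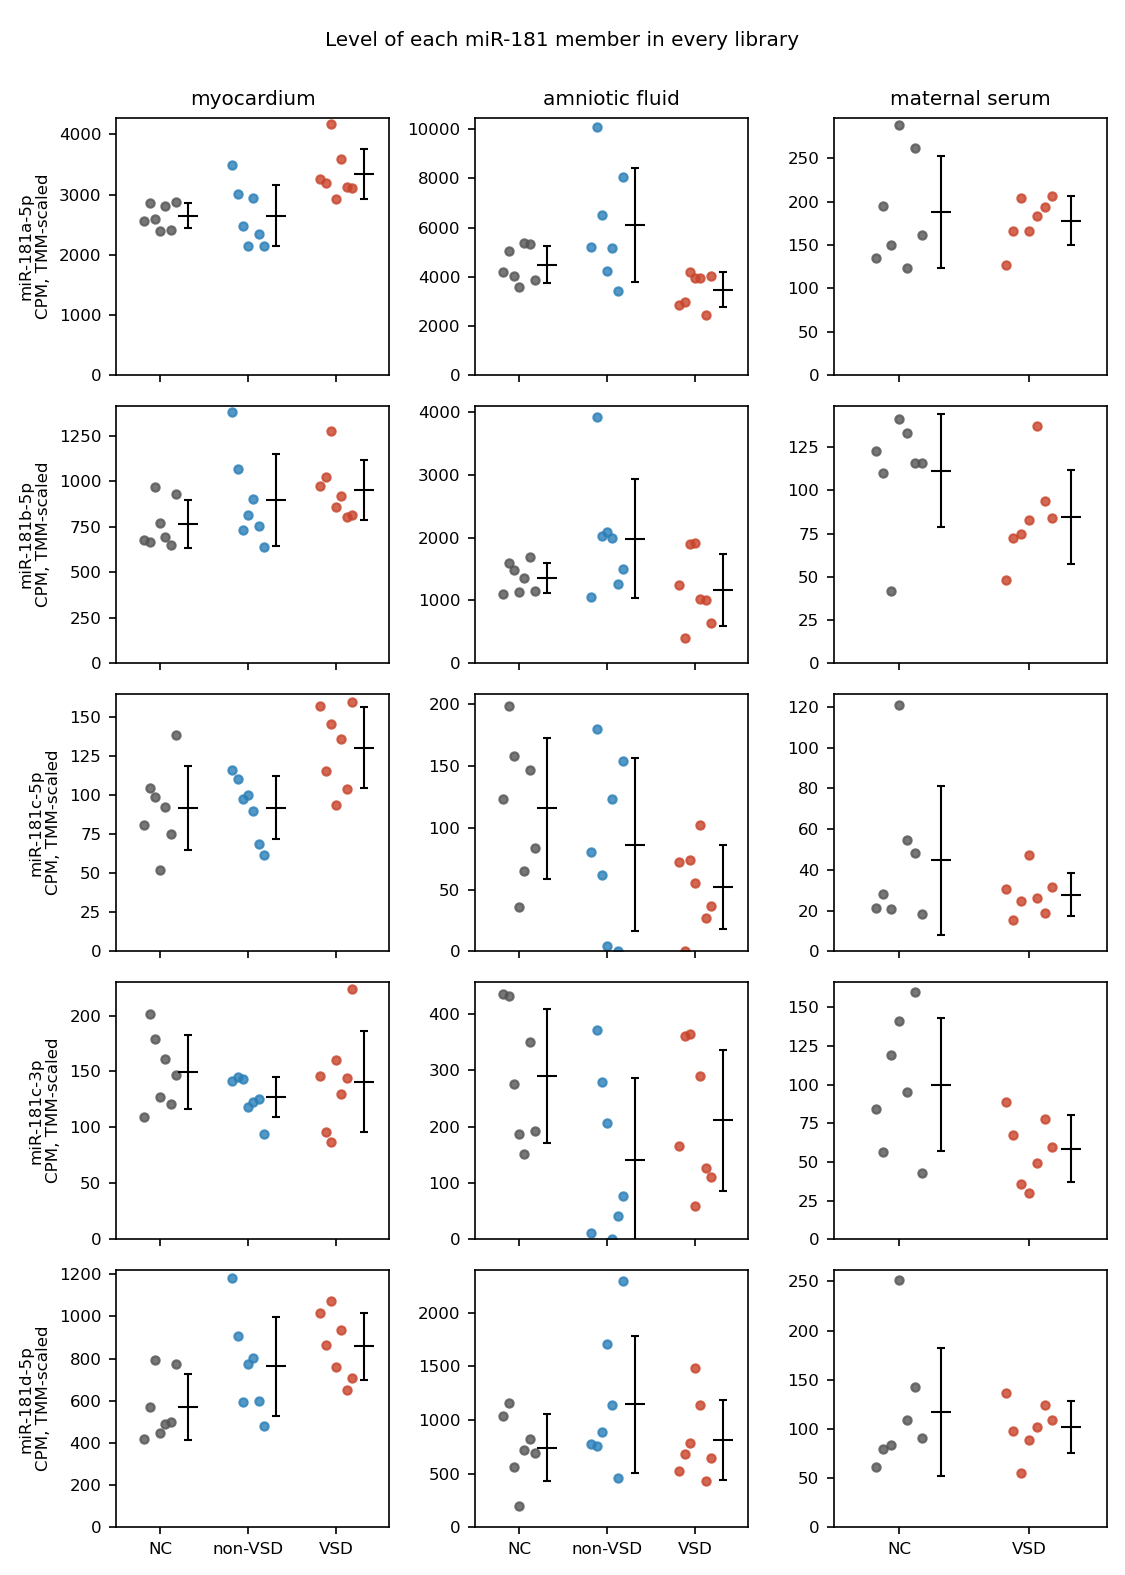
CPM scaled by TMM (vertical axis, starting at 0) of each member (rows) in every library by group (horizontal axis) of each tissue (columns); points are libraries, and bars give the mean and SD, cut at 0 where the SD passes below it. In the myocardium the VSD libraries of miR-181a-5p, between 2931 and 4180 CPM, sit above all NC libraries, of which the highest is at 2884 CPM.

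MiR-181d-5p had the largest change of the members in this comparison. Its level was between 418 and 795 CPM in NC (median 497) and between 653 and 1075 CPM in VSD (median 864). All 7 VSD libraries were above the NC median and 4 were above every NC library. The log2 fold change was 0.59 (SE 0.20, edgeR's unadjusted p = 0.00915, adjusted p = 0.107). MiR-181c-5p, its neighbour on the DNA, was between 52.0 and 139 CPM in NC (median 92.4) and between 94.0 and 160 CPM in VSD (median 136), a log2 fold change of 0.50 (SE 0.22, edgeR's unadjusted p = 0.0341, adjusted p = 0.211). MiR-181b-5p was between 648 and 969 CPM in NC (median 692) and between 802 and 1276 CPM in VSD (median 917), with a log2 fold change of 0.32 (SE 0.17, edgeR's unadjusted p = 0.0766). For both, the 7 VSD libraries lay above the NC median, and 3 of them lay above all NC libraries.

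MiR-181c-3p was between 109 and 201 CPM in NC (median 147) and between 87.1 and 223 CPM in VSD (median 144). Its log2 fold change of -0.09 (SE 0.23, edgeR's unadjusted p = 0.704) was within the spread of the groups. The 3p arms of the miR-181a hairpins are not members, but the arm comparison below turns on them. MiR-181a-2-3p had a log2 fold change of -0.61 (SE 0.26, edgeR's unadjusted p = 0.0311, adjusted p = 0.202) and miR-181a-1-3p of -0.47 (SE 0.24, edgeR's unadjusted p = 0.0681).

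Of the 5 members, 3 were higher in the VSD myocardium at an unadjusted p under 0.05 (miR-181a-5p, miR-181c-5p and miR-181d-5p), where 6.61% of all microRNAs tested were. None passed an adjusted p of 0.05 by edgeR, which 0.426% of all microRNAs did. The count of 3 was not stable: it was 1 without any 1 of NC replicates 1, 2, 3, 5 and 6 and VSD replicates 1, 5 and 6, and 0 without NC replicate 4 or VSD replicate 3. The median log2 fold change was 0.33 over the members and -0.05 over all 469. Whether members were called depended on the scaling, the tool and the filter. With library size only in place of TMM, the log2 fold change of the median microRNA shifted by 0.39, miR-181a-5p, miR-181b-5p, miR-181c-5p and miR-181d-5p were at 0.73, 0.75, 0.90 and 1.02, and all 4 passed (edgeR's adjusted p = 0.0373, 0.0322, 0.0497 and 0.0322), while miR-181c-3p turned to 0.30. With DESeq2, miR-181a-5p and miR-181d-5p passed at log2 fold changes of 0.35 and 0.61 (adjusted p = 0.0309 and 0.0243). With only microRNAs of at least 10 counts in every sample, miR-181d-5p passed at 0.71 (edgeR's adjusted p = 0.0473). Leaving out NC replicate 2, the removal of which brought 77 microRNAs past an adjusted p of 0.05, the values of miR-181a-5p and miR-181d-5p were 0.32 and 0.55 (edgeR's adjusted p = 0.149 and 0.0989). Without VSD replicate 3, the smallest library, they were 0.19 and 0.43 (edgeR's adjusted p = 0.474 and 0.342).

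Blood cell microRNAs moved in the opposite direction in the same comparison. All 4 red blood cell markers were lower in VSD at an unadjusted p under 0.05, with summed levels between 2651 and 91132 CPM in NC (median 33788) and between 3435 and 25158 CPM in VSD (median 7522). Of the 4 white blood cell markers, 2 were lower, with summed levels between 426 and 3758 CPM in NC and between 278 and 1142 CPM in VSD. None of these 8 passed edgeR's adjusted p of 0.05. The 5 heart muscle markers, 8 epithelial markers and 2 endothelial markers had no member at an unadjusted p under 0.05, although epithelial markers summed to between 1984 and 15250 CPM in VSD and to between 251 and 14234 CPM in NC. The part of these cell types in the values of the miR-181 members was not tested.

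In the non-VSD myocardium, which shares the drug with VSD, miR-181a-5p was between 2146 and 3488 CPM (median 2477), with 3 libraries above and 3 below all NC libraries. Its log2 fold change from NC was 0.04 (SE 0.14, edgeR's unadjusted p = 0.792). MiR-181c-5p was likewise close to NC, between 61.8 and 116 CPM (median 97.5), with a log2 fold change of 0.05 (SE 0.22). MiR-181d-5p was between 479 and 1182 CPM (median 776), above the NC median in 6 of 7 libraries, with a log2 fold change of 0.46 (SE 0.23, edgeR's unadjusted p = 0.0611). MiR-181b-5p was at 0.27 (SE 0.19) and miR-181c-3p at -0.20 (SE 0.18). By edgeR with TMM, none of the 5 members reached an unadjusted p under 0.05 here, against 17.5% of all microRNAs tested, and none an adjusted p under 0.05, against 0.219%. This depended on the scaling: with library size only, which shifted the median microRNA by 0.21, miR-181b-5p and miR-181d-5p were at 0.49 and 0.67 (edgeR's unadjusted p = 0.0104 and 0.00817, adjusted p = 0.101 and 0.0897). Blood cell markers were lower here too, 3 of 4 of red cells (median log2 fold change -1.61) and 1 of 4 of white cells at an unadjusted p under 0.05, and 1 of 2 endothelial markers was higher. None of these passed edgeR's adjusted p of 0.05, and their part was not tested. The partner arm miR-181a-1-3p was lower, between 100 and 154 CPM against 140 to 297 CPM in NC, with a log2 fold change of -0.68 (SE 0.22, edgeR's unadjusted p = 0.00659, adjusted p = 0.125).

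VSD was set against non-VSD to separate the phenotype from the exposure. MiR-181a-5p was higher in VSD by 0.33 in log2 units (SE 0.14, edgeR's unadjusted p = 0.0231, adjusted p = 0.426), and all 7 VSD libraries were above the non-VSD median. MiR-181c-5p was higher by 0.50 (SE 0.21, edgeR's unadjusted p = 0.0245, adjusted p = 0.426), with 4 of 7 VSD libraries above every non-VSD library. MiR-181b-5p and miR-181d-5p had values of 0.08 and 0.17, and miR-181c-3p of 0.15, with unadjusted p between 0.425 and 0.641 by edgeR. In this comparison 2 of 5 members were higher at an unadjusted p under 0.05, where 8.07% of all 483 microRNAs were, and the adjusted p was under 0.05 for 0 members and for 0% of all. Of the markers, 2 of 8 epithelial ones were higher in VSD at an unadjusted p under 0.05 (median log2 fold change 1.61 over the 8), 1 of 2 endothelial ones was lower, and the 5 heart muscle ones had a median of -0.78 with none past that p. Their part in these values was not tested. The count of 2 members was 1 without non-VSD replicate 4 and 0 without VSD replicate 3, non-VSD replicate 6 or non-VSD replicate 7. The VSD libraries take part in both this comparison and that with NC, so the 2 sets of values are not independent.

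All DMO-exposed fetuses against NC gave a log2 fold change of 0.51 for miR-181d-5p (SE 0.18, edgeR's unadjusted p = 0.0122, adjusted p = 0.0908). It was the 1 member of 5 that was higher at an unadjusted p under 0.05, where 8.07% of all microRNAs were. The adjusted p was under 0.05 for no member and for 8.49% of all microRNAs. MiR-181d-5p passed that threshold without NC replicate 2 (0.60, edgeR's adjusted p = 0.0497) and without non-VSD replicate 7 (0.61, edgeR's adjusted p = 0.0427), and with library size only (0.85, edgeR's adjusted p = 0.0083). The partner arm miR-181a-1-3p was among the microRNAs called with TMM scaling, with a log2 fold change of -0.58 (SE 0.18, edgeR's adjusted p = 0.0464). By library size only, its mean level was 178 CPM in NC, 129 CPM in non-VSD and 169 CPM in VSD.

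A ratio of the arms of 1 hairpin within a library does not depend on the scaling. In the myocardium the log2 ratio of miR-181c-5p to miR-181c-3p, with 0.5 added to each count, was -0.44, -0.94, -0.85, -1.29, -0.80, -0.68 and -0.08 in NC replicates 1 to 7. In VSD replicates 1 to 7 it was 0.10, 0.27, 0.74, -0.77, 0.08, -0.47 and -0.48. The 5p arm exceeded the 3p arm in 4 of 7 VSD libraries, and these 4 lay above all NC libraries. The mean was -0.08 ± 0.52 in VSD and -0.73 ± 0.38 in NC (SD, n = 7 each), a difference of 0.65 (exact permutation test, two-sided, p = 0.0198, adjusted p = 0.139 over 7 comparisons). In non-VSD the ratio was -0.48 ± 0.21, a difference from NC of 0.24 (exact permutation test, p = 0.166), and VSD less non-VSD was 0.41 (exact permutation test, p = 0.0781). Each of these passed an unadjusted p of 0.05 without 1 library, at 0.35 without NC replicate 7 and at 0.52 without VSD replicate 4 (exact permutation test, p = 0.0291 and 0.0233).

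The same ratio was then taken for miR-181a, as miR-181a-5p over the sum of miR-181a-1-3p and miR-181a-2-3p, a choice made after the values of these arms had been seen. The p-values below, adjusted or not, do not account for that choice and are no separate support for a change of these arms. The 5p arm had a median of 10.3 counts per 3p count in NC, 12.4 in non-VSD and 16.3 in VSD. On the log2 scale the NC libraries were at 3.56, 3.15, 2.64, 2.52, 3.36, 3.36 and 3.76 in replicates 1 to 7. The non-VSD libraries were close together, between 3.62 and 3.83, and all above the NC median. The VSD libraries were between 3.54 and 5.07, all above the NC median too, with 4 above every NC library. VSD exceeded NC by 0.83 (exact permutation test, two-sided, p = 0.00641, adjusted p = 0.0326 over 7 comparisons) and non-VSD exceeded NC by 0.49 (exact permutation test, p = 0.00932, adjusted p = 0.0326). VSD less non-VSD was 0.34 (exact permutation test, p = 0.0857). On the TMM scale, both arms entered these values. The VSD group had more of the 5p arm and less of both 3p arms. In the non-VSD group the 5p arm was near the NC level and miR-181a-1-3p was lower. How much each arm moved depended on the scaling. By library size only, mean miR-181a-1-3p was 178 ± 72.1 CPM in NC and 169 ± 50.4 CPM in VSD (SD, n = 7 each). Mean miR-181a-2-3p was 77.2 ± 20.5 CPM in NC and 70.6 ± 14.1 CPM in VSD. Mean miR-181a-5p was 2315 ± 617 CPM in NC and 2717 ± 412 CPM in non-VSD.

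**Figure D3:**
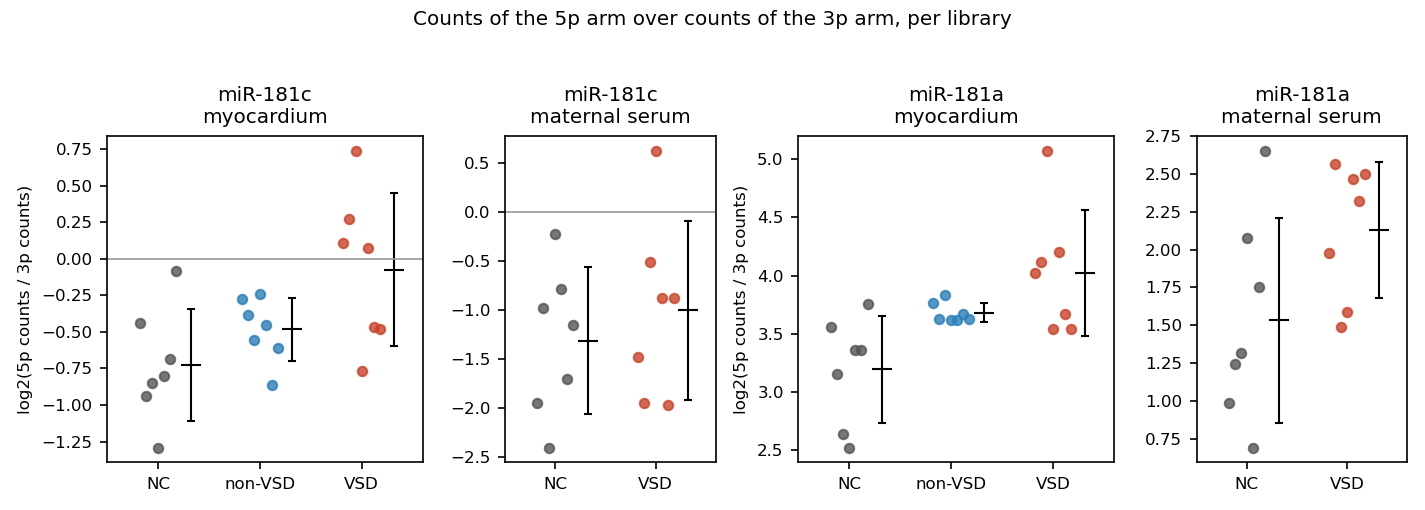
Log2 of 5p counts over 3p counts (vertical axis) in each library of the myocardium and maternal serum, for miR-181c (left) and miR-181a (right, both 3p arms summed), by group (horizontal axis); points are libraries, bars give the mean and SD, and the line at 0 marks equal counts. For miR-181c in the myocardium, 4 of 7 VSD libraries and no NC or non-VSD library lie above 0.

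In the amniotic fluid, miR-181a-5p was highest in non-VSD and lowest in VSD. It was at 4181, 5059, 4037, 3566, 5374, 5329 and 3876 CPM in NC replicates 1 to 7, at 5227, 10100, 6495, 4248, 5168, 3434 and 8076 CPM in non-VSD, and at 2852, 2955, 4206, 3932, 3955, 2464 and 4019 CPM in VSD. All 7 VSD libraries were below the non-VSD median, and 3 were below every non-VSD library. VSD against non-VSD gave a log2 fold change of -0.81 (SE 0.24, edgeR's unadjusted p = 0.00253, adjusted p = 0.104), the 6th lowest p of the 273 microRNAs tested. MiR-181b-5p followed, with -0.77 (SE 0.33, edgeR's unadjusted p = 0.0285, adjusted p = 0.331). Its level was between 1054 and 3925 CPM in non-VSD (median 2000) and between 408 and 1906 CPM in VSD (median 1018). In this comparison 2 of 5 members were lower at an unadjusted p under 0.05, where 5.13% of all microRNAs were, and the adjusted p was under 0.05 for no member and for 0% of all. The count was 1 without VSD replicate 2, 6 or 7 or non-VSD replicate 2. With only microRNAs of at least 10 counts in every sample, miR-181a-5p was at -0.84 and passed (edgeR's adjusted p = 0.0447). Of the markers, only the liver one, miR-122-5p, was past an unadjusted p of 0.05 here. It was higher in VSD, at a log2 fold change of 2.31 (edgeR's unadjusted p = 0.0111, adjusted p = 0.206), and its part was not tested.

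Against NC, the non-VSD amniotic fluid had log2 fold changes of 0.52 for miR-181a-5p (SE 0.25, edgeR's unadjusted p = 0.0525), 0.64 for miR-181b-5p (SE 0.30, edgeR's unadjusted p = 0.0451, adjusted p = 0.238) and 0.71 for miR-181d-5p (SE 0.41, edgeR's unadjusted p = 0.0967). MiR-181c-3p was at -0.90 (edgeR's unadjusted p = 0.272), and 4 of 7 non-VSD libraries lay below every NC library. For it the exact permutation test on log2 CPM gave p = 0.0408, unadjusted. That test is given here for this member only, so no change is read from it. MiR-181b-5p was the 1 member higher by edgeR at an unadjusted p under 0.05, where 11.2% of all microRNAs were, and the adjusted p was under 0.05 for no member and for 4.96% of all microRNAs. That count was 0 without any 1 of 6 NC libraries (replicates 1, 2, 4, 5, 6 and 7) or 3 non-VSD libraries (replicates 2, 3 and 5), and 3 without non-VSD replicate 6. Red blood cell markers were higher in the same comparison, 4 of 4 at an unadjusted p and 2 at edgeR's adjusted p under 0.05, with summed levels between 15044 and 34791 CPM in NC and between 25425 and 86089 CPM in non-VSD. Of the 2 endothelial markers, 1 was higher at an adjusted p under 0.05, with summed levels between 511 and 2176 CPM in NC and between 933 and 4286 CPM in non-VSD. Of the 3 white blood cell markers tested, 1 was higher at an unadjusted p under 0.05, miR-142-3p at a log2 fold change of 2.86 (edgeR's unadjusted p = 0.0040, adjusted p = 0.0606), and 1 of 8 epithelial markers was lower. Their part in the values of the miR-181 members was not tested.

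The VSD amniotic fluid gave -0.34 for miR-181a-5p against NC (SE 0.21, edgeR's unadjusted p = 0.119), -0.19 for miR-181b-5p, 0.16 for miR-181d-5p and -0.43 for miR-181c-3p. MiR-181c-5p was at -1.08 (SE 0.67, edgeR's unadjusted p = 0.127), from 112 counts over all NC and 61 over all VSD libraries, and all 7 VSD libraries were below the NC median. By edgeR, none of the 5 members reached an unadjusted p under 0.05, against 13.5% of all 245 microRNAs, and the adjusted p was under 0.05 for 0% of all. The exact permutation test on log2 CPM gave a lower p for miR-181a-5p and miR-181c-5p (two-sided, p = 0.0309 and 0.0396), the former with 3 of 7 VSD libraries below every NC library. Those p-values are unadjusted and given here for these 2 members only, so no change is read from them. In the same comparison 2 of 4 red blood cell markers and 1 of 3 white blood cell markers tested were higher at an unadjusted p under 0.05, and 1 of 8 epithelial markers was lower. The liver marker, miR-122-5p, was higher too, at a log2 fold change of 2.998 (edgeR's unadjusted p = 0.00415, adjusted p = 0.174). It was between 359 and 1631 CPM in NC (median 967) and between 619 and 40719 CPM in VSD (median 889). The part of these markers was not tested. In all DMO-exposed amniotic fluid against NC the values lay between -0.76 and 0.38. By edgeR, no member reached an unadjusted p under 0.05 there, against 16.5% of all microRNAs, or an adjusted p under 0.05, against 0.733%. The counts of miR-181c-3p in non-VSD replicates 1 to 7 were 2, 122, 36, 47, 0, 3 and 7, and those of miR-181c-5p were 14, 59, 8, 1, 20, 0 and 14. The log2 arm ratio ran from -4.98 to 5.36 in that group, with libraries far apart in opposite directions, and no comparison of it in the amniotic fluid passed the test (exact permutation test, p from 0.267 to 0.457). The cause of this spread was not tested.

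In the maternal serum, the only serum comparison was VSD against NC, and miR-181c-5p fell under the filter on low counts, with 53 counts over all VSD libraries. Serum is from the dam, and dams of the VSD group had received DMO themselves. Without a non-VSD serum group, the drug and the fetal phenotype cannot be told apart here. MiR-181c-3p was between 42.6 and 160 CPM in NC (median 95.1) and between 29.7 and 89.0 CPM in VSD (median 59.6), and all 7 VSD libraries were below the NC median. Its log2 fold change was -0.76 (SE 0.32, edgeR's unadjusted p = 0.0308, adjusted p = 0.306). The partner arm with the same seed, miR-181a-1-3p, had a value of -0.84 (SE 0.33, edgeR's unadjusted p = 0.0179, adjusted p = 0.243), from 133 counts over NC and 48 over VSD. These raw counts also hold a difference in depth, as the median library total was 496237 in NC serum and 300005 in VSD serum. The 5p arms were at -0.07 (miR-181a-5p), -0.39 (miR-181b-5p) and -0.19 (miR-181d-5p), with standard errors of 0.23 to 0.31. Of the 4 members tested, 1 was lower at an unadjusted p under 0.05, where 5.02% of all 219 microRNAs were, and the adjusted p was under 0.05 for no member and for 0% of all. The count was 0 without NC replicate 4 or 6 or VSD replicate 3 or 4, and 2 without NC replicate 3 or VSD replicate 5. The miR-181a ratio of 5p to 3p counts was higher in VSD by 0.60 in log2 units (two-sided exact permutation test, p = 0.0763), and all 7 VSD libraries lay above the NC median of this ratio.

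Whether a change differed between tissues was tested on the difference itself, with labels permuted within each tissue, in 25 tests over members, tissues and comparisons. The change of miR-181a-5p in mean log2 CPM from NC to VSD was 0.33 in the myocardium and -0.37 in the amniotic fluid. The difference was 0.71 (permutation test, 100000 resamples, two-sided, p = 0.00013, adjusted p = 0.00212). For VSD against non-VSD the changes were 0.35 and -0.75, a difference of 1.10 (permutation test, p = 0.00017, adjusted p = 0.00212). These 2 tests share the VSD libraries. MiR-181c-5p changed from NC to VSD by 0.53 in the myocardium and by -1.09 in the amniotic fluid, a difference of 1.62 (permutation test, p = 0.00245, adjusted p = 0.0204), with the low counts in the fluid given above. With library size only, the 3 differences were 1.17, 1.33 and 2.14 (permutation test, p = 0.00011, 3e-05 and 0.00076). Over leaving out each library in turn, they stayed between 0.63 and 0.76, between 0.96 and 1.22 and between 1.28 and 1.83. The hearts and the fluids were prepared with different kits, and kit and tissue cannot be told apart in these differences. The test also treats the libraries of the tissues as independent of each other. Whether a heart and a fluid came from the same fetus or dam is not given in the labels. No other of the 25 differences passed the adjusted threshold. Myocardium and serum differed for miR-181b-5p by 0.67 (permutation test, p = 0.0264, adjusted p = 0.144).

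**Figure D4:**
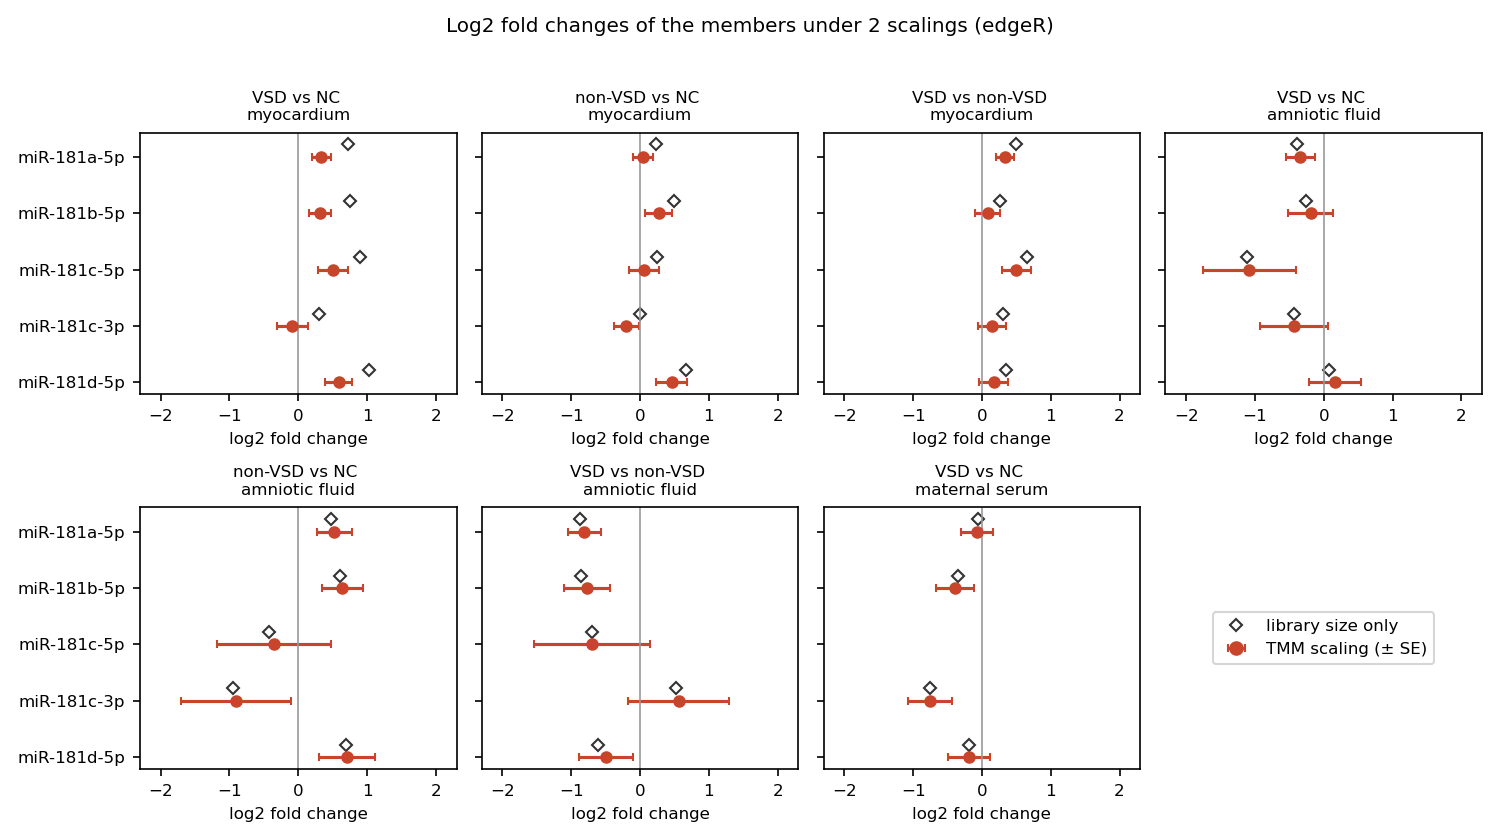
Log2 fold change (horizontal axis) of each member (vertical axis) in 7 comparisons, by edgeR with TMM scaling (filled points, bars give 1 standard error) and with library size only (open diamonds); miR-181c-5p in serum was under the filter. The change of miR-181a-5p from NC to VSD was 0.33 in the myocardium and -0.34 in the amniotic fluid with TMM, and the scalings lie apart mainly in the myocardium, where the median microRNA shifted by 0.39.

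The summed level of the 5 members gives the size of the family as a whole, without a test. In the myocardium its mean log2 CPM was 12.04 ± 0.15 in NC, 12.12 ± 0.30 in non-VSD and 12.40 ± 0.17 in VSD (SD, n = 7 each). In the amniotic fluid it was 12.75 ± 0.26 in NC, 13.13 ± 0.51 in non-VSD and 12.45 ± 0.35 in VSD. In serum it was 9.06 ± 0.46 in NC and 8.81 ± 0.15 in VSD. By mean on this scale, VSD had the highest family total in the heart and the lowest in the amniotic fluid. The size of the difference from NC in the myocardium depended on the scaling, at 0.36 with TMM and 0.77 with library size only for VSD, and at 0.08 and 0.35 for non-VSD.

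Within the family, the shares of the 5p arms were compared between groups in 28 tests, of which none passed the adjusted threshold. The lowest p belonged to miR-181b-5p in the myocardium, with 18.0% ± 1.22 of the 5p arms in VSD and 20.2% ± 1.33 in non-VSD (SD, n = 7 each, exact permutation test, two-sided, p = 0.00758, adjusted p = 0.212), where 5 of 7 VSD libraries lay below all non-VSD libraries. MiR-181d-5p took 17.1% ± 2.10 in non-VSD and 13.8% ± 2.44 in NC (exact permutation test, p = 0.0233, adjusted p = 0.251). In the amniotic fluid miR-181c-5p took 0.908% ± 0.563 in VSD, 0.825% ± 0.598 in non-VSD and 1.68% ± 0.715 in NC (exact permutation test against NC, p = 0.0449 for VSD and 0.0332 for non-VSD, adjusted p = 0.251 for both).

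Across the libraries of a tissue the 5p arms moved together in the myocardium, given here as a description, since libraries of different groups and depths enter. Over 21 myocardium libraries Spearman's rho of log2 CPM was 0.93 between miR-181b-5p and miR-181d-5p, 0.79 between miR-181a-5p and miR-181c-5p, and at least 0.67 for every pair of 5p arms. With miR-181c-3p it was between 0.02 and 0.32. In 14 serum libraries the 5p pairs were between 0.23 and 0.49. The non-member microRNAs most like each 5p arm were then found among those passing the filter. In the myocardium, miR-298-3p was the most alike for miR-181a-5p (rho = 0.85) and miR-181c-5p (rho = 0.87), and miR-301b-3p for miR-181b-5p (rho = 0.82) and miR-181d-5p (rho = 0.88). In the amniotic fluid the most alike were miR-92a-3p for miR-181a-5p (rho = 0.64), miR-329-5p for miR-181b-5p (rho = 0.61), miR-92b-3p for miR-181c-5p (rho = 0.63) and miR-362-5p for miR-181d-5p (rho = 0.65). In serum, the most alike were miR-142-3p, a white blood cell microRNA, for miR-181a-5p (rho = 0.73), miR-301a-3p for miR-181b-5p (rho = 0.60) and miR-872-5p for miR-181d-5p (rho = 0.73).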

How the data were processed

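The authors deposited 5 tables of microRNA counts per library, with 70 normalized per-sample columns beside them that were not used here. Per the labels, bcl2fastq 2.19 and DESeq were among the tools. The aligner, the annotation and the genome build are not given in the sources used here. The NC counts were identical in both tables of a tissue and were used once. The members and lists were chosen with earlier results of these data known, and the named members are all 5, with the partner arms of their hairpins.

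Groups were taken from the labels, 7 libraries in each. Counts were tested in R 4.3.3 with edgeR 4.0.16 (quasi-likelihood test, TMM scaling, filterByExpr at 10 counts per library and 15 in total) on all microRNAs, with Benjamini-Hochberg adjusted p over all tested and a threshold of 0.05. VSD and non-VSD against NC were fitted on the 14 libraries compared. VSD against non-VSD, and the mean of both against NC, were fitted on 21. The script was tested on simulated counts. Shares, arm ratios (0.5 added to each count) and, where stated, levels of single members were compared by exact permutation over 3432 groupings. Differences between tissues were compared by 100000 random permutations. Both were run in Python 3.11.15 with scipy 1.17.1. DESeq2 1.42.0, scaling by library size only, limma 3.58.1 with log2(CPM + 1) values, other filters, other sets of groups, the replicate block and leaving out each library were alternatives. The miR-181a ratio, the miR-181c ratio with miR-181a-1-3p added, the block for both ratios, and the alternatives for differences between tissues were chosen after seeing the data. The labels number replicates alike in each group but name no shared dam or litter.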

Additional observations from a re-analysis of the deposited data

Results flagged for a closer look

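Of 48 sets of 7 libraries examined, 3 held a library far from the other 6, where chance gives about 1 in 20 sets. MiR-181d-5p in the amniotic fluid of NC replicate 4 was at a log2 CPM of 7.75. MiR-181b-5p in the serum of NC replicate 3 was at a log2 CPM of 5.58. The log2 arm ratio of miR-181c in the amniotic fluid of VSD replicate 2 was -5.93, from 0 counts of miR-181c-5p and 30 of miR-181c-3p.

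The change differed between the myocardium and the amniotic fluid, by a permutation test of the difference itself, for miR-181a-5p from NC to VSD (0.71), for miR-181a-5p from non-VSD to VSD (1.10) and for miR-181c-5p from NC to VSD (1.62), each on the log2 scale as myocardium less amniotic fluid. In each case the myocardium was higher in VSD and the amniotic fluid lower.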

How the results depend on the processing

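Of 44 log2 fold changes of members, 26 kept their sign and their side of the adjusted threshold under every alternative run, 10 changed sign under at least 1 and 8 passed the threshold under at least 1 without changing sign. For VSD against NC in the myocardium, the number of members at an adjusted p under 0.05 was 2 with DESeq2, 4 with limma, 4 with library size only and 1 with at least 10 counts in every sample. For DMO against NC in the myocardium it was 1, 3 and 3 with the first 3 of these. For VSD against non-VSD in the amniotic fluid it was 1 with at least 10 counts. At an unadjusted p, non-VSD against NC in the myocardium had 2 members with limma and 2 with library size only, DMO against NC had 4 and 4, and VSD against non-VSD had 1 in a fit of only these groups. In the amniotic fluid, non-VSD against NC had 2 with DESeq2, 3 with at least 10 counts, and 0 with limma, with library size only, with no filter, with all 3 groups and with the replicate block, and VSD against non-VSD had 1 with no filter. In serum there were 0 with limma and with at least 10 counts. That filter left no miR-181c-5p in the amniotic fluid, miR-181c-3p there only in VSD against NC, and no miR-181c-3p in serum. The family total moved in the myocardium, with library size only and with limma alike, to 0.77 for VSD, 0.35 for non-VSD and 0.56 for DMO against NC.

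Some signs changed. MiR-181c-3p in the myocardium was at 0.30 for VSD against NC with limma and with library size only and at 0.0077 with at least 10 counts, at 0.055 for non-VSD with limma, and at 0.18 and 0.15 for DMO with limma and library size only. With no filter, miR-181a-5p and miR-181c-5p in non-VSD myocardium were at -0.0026 and -0.00013. With limma, miR-181a-5p was at -0.0055 for DMO in the amniotic fluid and at 0.028 in serum. With miR-181c-3p in the sum, the share of miR-181a-5p for non-VSD in the amniotic fluid differed by 0.035 percentage points. With library size only, 2 differences between tissues turned, to -0.015 (miR-181c-3p, amniotic fluid less serum) and 0.041 (miR-181d-5p for non-VSD, myocardium less amniotic fluid). The miR-181c arm ratio of non-VSD less NC myocardium was 0.49 with miR-181a-1-3p added. The cause was not tested.

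Leaving out 1 library at a time gave members at an unadjusted p between 0 and 3 for VSD, 0 and 1 for non-VSD and 1 and 2 for DMO against NC in the myocardium (0 to 1 at an adjusted p), between 0 and 2 for VSD against non-VSD, between 0 and 3 for non-VSD against NC and 1 and 2 for VSD against non-VSD in the amniotic fluid, and between 0 and 2 in serum. The miR-181c arm ratio in the myocardium ranged from 0.15 to 0.35 for non-VSD less NC and from 0.27 to 0.52 for VSD less non-VSD, and the miR-181a ratio of non-VSD less NC in the amniotic fluid from -0.61 to 0.83. Log2 fold changes that changed sign ranged from -0.038 to 0.071 (miR-181a-5p) and -0.061 to 0.15 (miR-181c-5p) for non-VSD against NC, -0.049 to 0.23 (miR-181b-5p) for VSD against non-VSD and -0.24 to 0.017 (miR-181c-3p) for DMO against NC in the myocardium, -0.071 to 0.30 (miR-181d-5p, VSD against NC) and -0.032 to 0.15 (miR-181a-5p, DMO against NC) in the amniotic fluid, and -0.20 to 0.055 (miR-181a-5p) and -0.32 to 0.058 (miR-181d-5p) in serum. Shares ranged from -0.25 to 0.0024 percentage points (miR-181c-5p, non-VSD less NC myocardium). In the amniotic fluid they ranged from -1.004 to 1.86 (miR-181b-5p, VSD less NC), -3.16 to 0.26 (miR-181a-5p, non-VSD less NC), and -3.21 to 0.70 (miR-181a-5p), -2.27 to 0.94 (miR-181b-5p) and -0.055 to 0.23 (miR-181c-5p) for VSD less non-VSD, and in serum from -0.64 to 3.46 (miR-181d-5p).

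In no comparison did all libraries with the same number deviate together. A correlation over 0.1 was found in 0 of 7 (VSD and non-VSD amniotic fluid) to 5 of 7 pairs (VSD and non-VSD myocardium, and serum). Such correlations cannot show whether libraries of the same number share a dam or litter, which the labels do not name. With the replicate block, miR-181a-5p was at 0.33 and miR-181d-5p at 0.61 for VSD against NC in the myocardium, and the members at an unadjusted p were 0 for non-VSD against NC and 1 for VSD against non-VSD in the amniotic fluid and 0 in serum. The depth of the amniotic fluid and serum limits what can be said of miR-181c.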

Other observations

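Partner arms of the members' hairpins were also listed. MiR-181a-2-3p in the amniotic fluid had 2 counts over the 7 NC libraries, 21 over VSD and 60 over non-VSD, of which 50 were in non-VSD replicate 5. MiR-181b-2-3p was listed in the myocardium only, with 47 counts over NC, 67 over VSD and 45 over non-VSD. MiR-181d-3p had 53 counts over NC and 33 over VSD in serum, and 16 over NC and 16 over VSD in the myocardium. The VSD serum libraries were smaller, and scaled by library size its mean in serum was 19.6 ± 10.3 CPM in NC and 14.6 ± 11.8 CPM in VSD (SD, n = 7 each).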
